A study of Mus musculus with 42 samples.

Results

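The genes of glycolysis and of the response to low oxygen were followed in Foxp3 regulatory (Treg) and conventional (Tconv) CD4 T cells of inflamed and healthy gut and joint. The set holds 34 genes, chosen by name and looked up in a count table of 46603 genes: 16 glycolytic enzymes, 4 membrane transporters of glucose or lactate, 3 regulators of glycolytic flux, the oxygen-regulated transcription factor Hif1a, and 10 genes known as hypoxia targets. All 34 were found, each under 1 Ensembl identifier, and all 34 passed the filter on low counts in every comparison.

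Cells were sorted from DEREG mice, which report Foxp3 by green fluorescence, so Treg are the reporter-positive and Tconv the reporter-negative CD4 T cells. TNFdARE mice overproduce tumour necrosis factor because the AU-rich element of Tnf is deleted, and their WT littermates also carried DEREG. Each cell type came from the ileum, the mesenteric node that drains it, the synovium of the ankle, and the inguinal and popliteal nodes, which drain the ankle and are called the joint nodes here. Combining both cell types, the 4 sites and both genotypes gives 16 groups, sampled in up to 3 independent experiments (A, B, C) as 42 bulk RNA-seq libraries. Groups hold 3 libraries, apart from the TNFdARE Treg and Tconv of the mesenteric node (2 each, B and C), the TNFdARE Tconv and WT Treg of the synovium (2 each, A and B) and the WT Tconv of the synovium (1, A). That last group has no replicate, so the genotypes were not tested in synovial Tconv. The labels give neither the age or sex of the mice nor the number pooled in a library, and p-values measure the spread between these libraries.

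Glycolysis splits glucose into pyruvate. Lactate dehydrogenase then turns pyruvate into lactate, and pyruvate dehydrogenase instead sends it to the mitochondria. Activated T cells raise glycolysis, and Treg are known to depend on it less than effector T cells. With oxygen present, prolyl hydroxylases of the Egln family mark the HIF1A protein for destruction. When oxygen is low the protein persists and, with its partner ARNT, binds short motifs with the core ACGTG or GCGTG in target genes, among them glycolytic enzymes and Egln3 itself. In T cells, receptor and cytokine signals also raise Hif1a without low oxygen, and RNA levels show neither the HIF1A protein nor oxygen.

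Promoter windows of 300 bases from RefSeq (GRCm38.p6) were matched for 31 of the 34 genes. The core ACGTG or GCGTG was searched on both strands. At least 1 match lay in 39 of the 48 windows of these genes (81.2%), against 14380 of 32851 windows of all genes (43.8%). ACGTG alone lay in 27 (56.2%) against 6447 (19.6%). The windows also differed in base composition: the median number of CG dinucleotides, which GCGTG contains and which ACGTG also contains, was 20.5 in the 48 windows and 7 in all. A match is a description of letters, and the part of base composition in these shares was not tested. Below are 5 windows, shown because the genes differ in how they behave between tissue and node. Egln3 and Hilpda were higher in both tissues, Bnip3 and Ldha were higher in the synovium and not the ileum, and P4ha1 was higher in neither. Capitals mark the core, read as ACGTG or GCGTG on the printed strand and as CACGT or CACGC on the other, and CACGTG holds ACGTG on both. The windows are chr12:54203825-54204124 (minus strand) for Egln3, chr7:138909457-138909756 (minus) for Bnip3, chr7:46845554-46845853 (plus) for the first of the 2 Ldha windows, chr6:29272376-29272675 (plus) for the shown one of the 2 Hilpda windows, and chr10:59323046-59323345 (plus) for P4ha1.
Egln3: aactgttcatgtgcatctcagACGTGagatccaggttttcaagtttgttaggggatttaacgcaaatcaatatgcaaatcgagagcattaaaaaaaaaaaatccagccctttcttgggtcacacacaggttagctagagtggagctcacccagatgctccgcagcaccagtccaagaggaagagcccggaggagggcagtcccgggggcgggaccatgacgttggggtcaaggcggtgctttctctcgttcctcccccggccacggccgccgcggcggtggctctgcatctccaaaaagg
Bnip3: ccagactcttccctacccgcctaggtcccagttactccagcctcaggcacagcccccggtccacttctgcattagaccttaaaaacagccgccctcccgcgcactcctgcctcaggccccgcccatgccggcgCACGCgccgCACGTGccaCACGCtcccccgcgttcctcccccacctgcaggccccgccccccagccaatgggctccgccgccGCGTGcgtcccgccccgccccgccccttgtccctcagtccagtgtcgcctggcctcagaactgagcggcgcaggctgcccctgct
Ldha: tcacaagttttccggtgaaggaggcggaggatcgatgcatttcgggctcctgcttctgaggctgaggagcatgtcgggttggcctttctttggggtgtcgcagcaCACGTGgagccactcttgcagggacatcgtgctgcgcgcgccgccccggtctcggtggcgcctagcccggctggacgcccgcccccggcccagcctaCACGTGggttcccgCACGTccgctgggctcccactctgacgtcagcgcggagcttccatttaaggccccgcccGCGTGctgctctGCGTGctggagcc
Hilpda: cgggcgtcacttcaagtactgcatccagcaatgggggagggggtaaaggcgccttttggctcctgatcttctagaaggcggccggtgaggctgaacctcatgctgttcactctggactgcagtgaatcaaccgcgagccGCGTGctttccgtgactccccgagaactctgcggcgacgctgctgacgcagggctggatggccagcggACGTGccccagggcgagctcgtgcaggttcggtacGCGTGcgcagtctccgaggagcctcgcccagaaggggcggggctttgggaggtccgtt
P4ha1: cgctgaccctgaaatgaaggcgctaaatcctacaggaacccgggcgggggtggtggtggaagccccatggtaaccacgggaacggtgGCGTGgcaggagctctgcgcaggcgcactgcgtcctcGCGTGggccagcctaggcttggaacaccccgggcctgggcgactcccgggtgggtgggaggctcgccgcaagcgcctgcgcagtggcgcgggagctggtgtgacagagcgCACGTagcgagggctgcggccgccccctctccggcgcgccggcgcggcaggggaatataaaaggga
Egln3 has 1 match in its window, Hilpda and P4ha1 have 3 each, Bnip3 has 5 and Ldha has 7. The windows not shown have 1 match for Hilpda and 2 for Ldha. Whether the number of matches goes with the changes described next was not tested.

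Several libraries stand apart and are named beside the results they touch. Total counts were between 18261064 and 30301202. In the WT synovial Treg library of experiment A, 13341 genes were detected, the lowest number. Its 6 fibroblast markers summed to 16120 CPM (counts relative to library size), 6 myeloid markers to 302.6 and 4 globin genes to 308.9. CPM of single genes are scaled by TMM factors, and sums over a list of markers are not. In the WT synovial Treg library of experiment B the fibroblast markers summed to 13260 CPM, and Foxp3 was at 566.2 CPM against 1172 to 1465 in the other 4 synovial Treg libraries. The only WT synovial Tconv library had 985.3 CPM of 5 CD8 and NK cell markers, against 32.41 and 83.28 in the TNFdARE ones. The TNFdARE B and WT C Tconv libraries of the joint nodes had 29599 and 31454 genes detected, against 17835 to 18172 in the other 4. In experiment A the ileal Treg had 9703 (TNFdARE) and 3243 (WT) CPM of 5 plasma cell markers. Foxp3 was at 566.2 to 1645 CPM in all Treg libraries. Both TNFdARE synovial Tconv libraries went against their label by this marker: Foxp3 was at 618.5 and 615.4 CPM, within the Treg range. Their 4 Treg markers summed to 2861 and 2859 CPM, against 2941 to 3472 in node Treg and 32.56 to 195.8 in node Tconv. The sum was also 1546 to 1768 CPM in WT ileal Tconv, where Foxp3 was at most 18.54, and 2601 to 3067 in TNFdARE ileal Tconv. In synovial Treg it was 3801 to 6494. The TNFdARE synovial Tconv libraries are called so here as labelled, and as they are the whole group, its results cannot be given without them. In the other Tconv libraries Foxp3 was between 115.2 and 199.8 CPM in the TNFdARE ileum and at most 39 elsewhere. The Tnf gene total cannot show the deleted element. It was between 57.33 and 106.6 CPM in TNFdARE and between 28.14 and 44.5 CPM in WT mesenteric Treg. The genotypes also did not overlap in ileal Treg or in Tconv of either node. They did in ileal Tconv (81.68 to 99.79 CPM in TNFdARE against 67.6 to 100.6 in WT) and joint-node Treg (79.21 to 111 against 55.32 to 88.75). Synovial Treg overlapped too (57.77 to 130.8 against 26.73 to 99.07). The WT synovial Tconv library, at 170.8 CPM, was above the TNFdARE ones (134.5 and 167.7).

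The mean log2 CPM of the 16 enzymes separated nodes from tissues. This enzyme score was between 5.99 and 6.47 in the 22 node libraries of both cell types, between 6.61 and 6.94 in the 12 ileal libraries, and between 7.02 and 7.44 in 6 of the 8 synovial ones. The exceptions were the WT synovial Treg library of experiment A, at 6.30, and the single WT synovial Tconv library, at 6.595. The score of the 10 hypoxia targets, computed the same way, was between 4.47 and 5.01 in the nodes. It was between 5.32 and 5.63 in ileal Tconv and between 5.76 and 6.06 in ileal Treg, with no overlap between the cell types. In synovial Treg it was 6.68, 6.59 and 6.56 in TNFdARE and 5.71 and 6.70 in WT. TNFdARE synovial Tconv had 6.10 and 6.12, and the WT synovial Tconv library had 4.21, the lowest of all 42. The nodes of gut and joint overlapped in both scores. The 34 genes together took between 0.456% and 0.978% of the counts of a library. In bulk RNA, fewer cells of a type and less RNA per cell cannot be told apart.

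**Figure D1:**
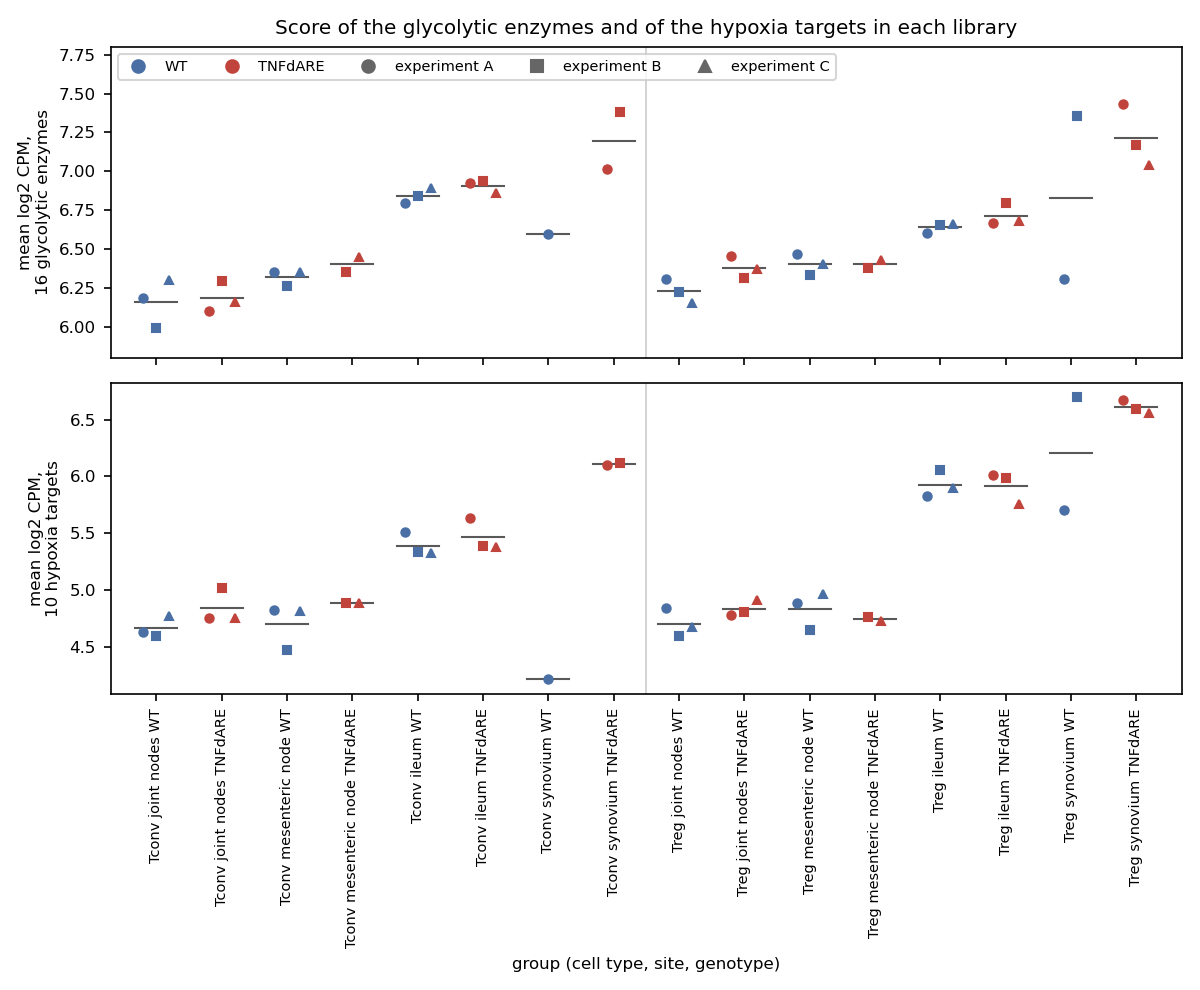
Mean log2 CPM of the 16 glycolytic enzymes (top) and of the 10 hypoxia targets (bottom) in each of the 42 libraries, by group. Colour gives the genotype, marker shape the experiment, and the bar the group mean. Enzyme scores lie between 5.99 and 6.47 in nodes and between 6.61 and 6.94 in the ileum, and the lowest hypoxia score, 4.21, is the single WT synovial Tconv library.

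Levels between genes were compared as CPM per kilobase of exon, by the median over the libraries of a cell type and site. Ldha, which makes lactate, was the highest of the 34 in all 8 combinations of cell type and site, from 239.5 in joint-node Treg to 510.7 in synovial Tconv. In joint-node Tconv Aldoa followed at 164, Pkm (pyruvate kinase) at 156.4 and Eno1 at 122.1, and Hif1a was far lower at 34.1. In ileal Tconv Hif1a was second at 301.6, close to Ldha at 305.6, with Pkm at 210.6. In synovial Treg Aldoa (311.6), Pkm (306.6) and Hif1a (283.9) followed Ldha (435.6), and Hilpda reached 140.1. Hk2 and Vegfa were the lowest in both nodes of both cell types, between 0.0723 and 0.596. Over the 8 medians in CPM, Pfkfb4 had a range of at least 77.3-fold (its lowest median was 0 and was set to the level of 3 counts, 0.15 CPM), Hk2 one of 49.2-fold and Egln3 one of 33.9-fold, and Bnip3l and Hk1 ranges of 1.25-fold and 1.26-fold.

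Tissue cells were compared with cells of the draining node, to ask how these genes differ between the tissues and their nodes. TNFdARE and WT entered with equal weight, so these differences average inflamed and healthy mice. Synovial Tconv are the exception, where the TNFdARE groups alone were compared. In edgeR's quasi-likelihood test with Benjamini-Hochberg adjustment, 15 of the 34 genes were higher and 4 lower in ileal than in mesenteric Treg, where 17% of all genes tested were higher and 12.2% lower. In Tconv 18 were higher and 8 lower in the ileum (34.3% and 26.7% of all genes). In Treg 19 were higher and 3 lower in the synovium than in the joint nodes (19.2% and 18.5% of all genes), and in TNFdARE Tconv 24 and 3 (17.2% and 14.1%). In this last comparison Foxp3 was at 618.5 and 615.4 CPM in the synovial and 30.29 to 39 in the joint-node libraries, and all 4 Treg markers passed as higher, as they did in ileal Tconv. The part of this in the Tconv results was not tested. By role, 6 of the 16 enzymes were higher and 2 lower in ileal Treg, 7 and 4 in ileal Tconv, 9 and 1 in synovial Treg, and 13 and 1 in synovial TNFdARE Tconv. Of the 10 hypoxia targets these were 5 and 1, 5 and 3, 7 and 1, and 6 and 1, and of the 4 transporters 3, 4, 2 and 4 were higher and 0 lower. The shares of the 34 genes that were higher were above the background in gut and joint, by least in ileal Tconv. The shares that were lower were near it in the gut and below it in the joint. These are small counts of 34, and the excess was not tested. The median log2 fold change of the 34 genes was 0.86 in synovial Treg and 0.92 in synovial TNFdARE Tconv, where the medians of all genes were -0.09 and -0.11. In the ileum the medians were 0.32 (Treg) and 0.30 (Tconv), and those of all genes 0.03 and 0.08. Egln3, Gapdh, Hif1a, Hilpda, Mxi1, Ndrg1, Pfkp, Slc16a3, Slc2a1, Tpi1 and Vegfa, 11 of the 34, were higher in all 4 comparisons, as were 7.25% of the 14681 genes tested in all 4. Ddit4, Ldhb and Pdk1 were lower in all 4, as were 5.19% of genes. Bnip3l, Hk1 and Pfkfb4 passed in none.

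**Figure D2:**
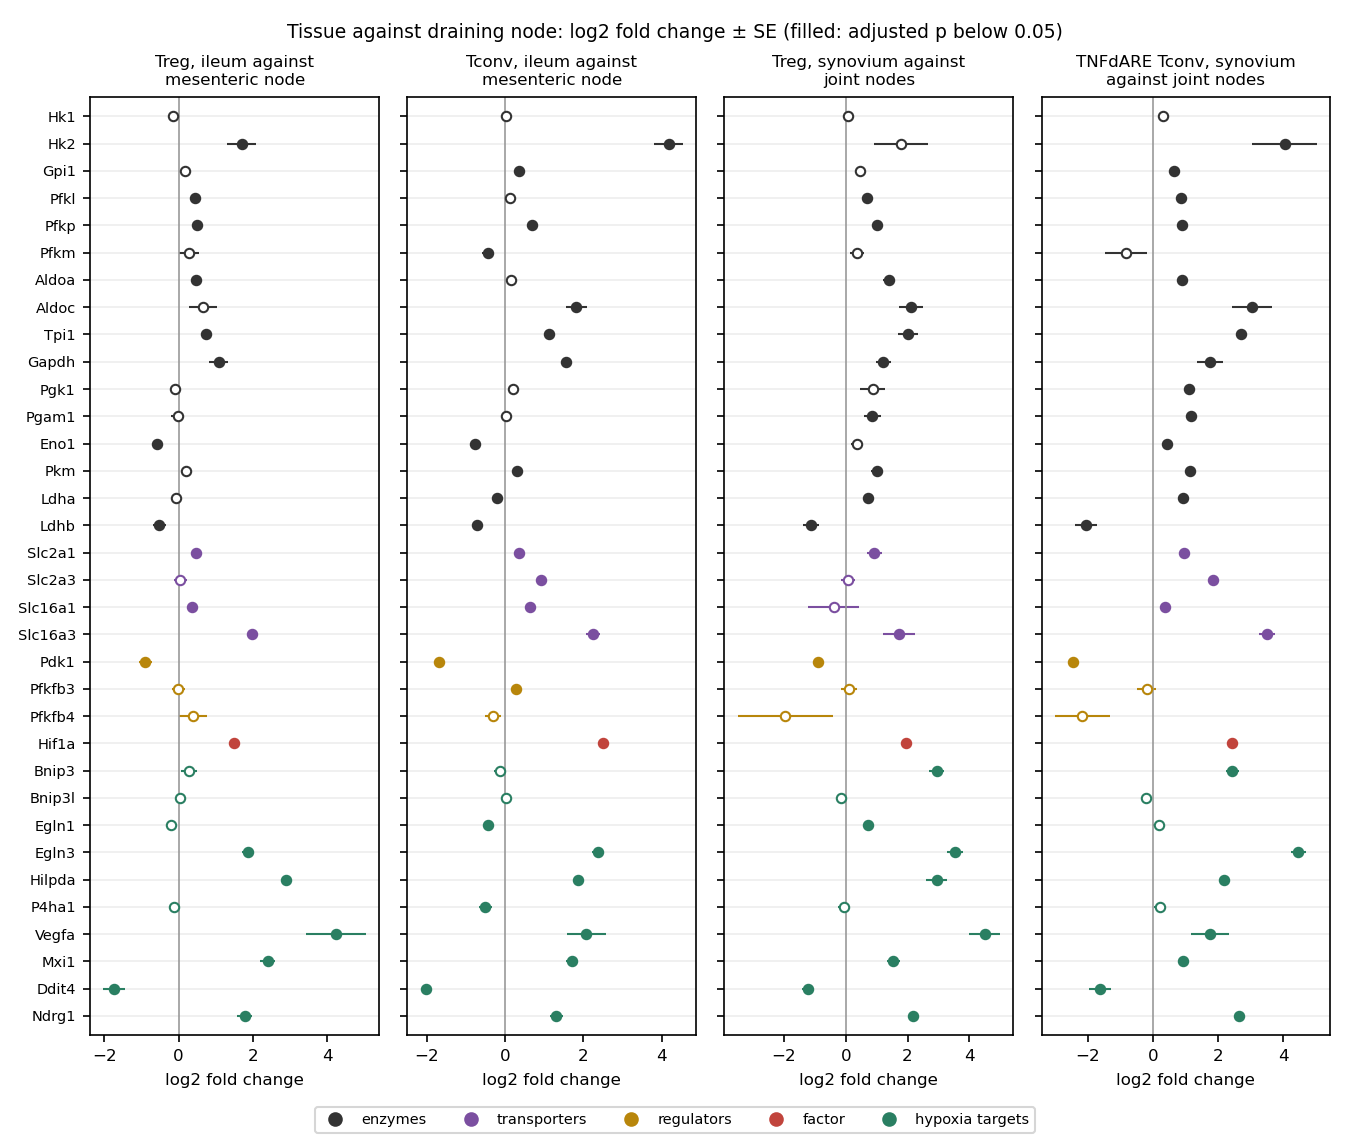
Log2 fold change ± SE of each of the 34 genes in 4 comparisons of tissue with draining node (edgeR), coloured by role. Filled points have an adjusted p below 0.05. Hif1a and Egln3 lie right of 0 and Ddit4, Ldhb and Pdk1 left of 0 in all 4 panels, while Bnip3 lies near 0 in both ileal panels and between 2.44 and 2.94 in the synovial ones.

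Hif1a, the subunit of the factor that oxygen controls (ENSMUSG00000021109, chromosome 12, 73901375 to 73947530, GRCm38), was higher in all 4 tissue comparisons. In Treg it was between 257.2 and 353.9 CPM in the joint nodes (n = 6), between 425.7 and 572.4 in the mesenteric node (n = 5) and between 1266 and 1716 in the ileum (n = 6). Synovial Treg had 1674, 1901 and 1764 CPM in TNFdARE and 676.3 and 990.8 in WT. Every tissue library was above every node library, and the 2 WT synovial libraries were below every ileal one. Tconv had between 180.8 and 222.1 CPM in the joint nodes, between 259.2 and 397.4 in the mesenteric node and between 1371 and 2217 in the ileum. TNFdARE synovial Tconv had 1088 and 1181 CPM, and the WT synovial Tconv library had 270.3, within the range of the nodes. The log2 fold change was 1.496 ± 0.10 (SE, adjusted p = 5.7e-06) in ileal Treg, 2.50 ± 0.10 (2e-09) in ileal Tconv, 1.95 ± 0.11 (1.58e-06) in synovial Treg and 2.45 ± 0.10 (7.89e-07) in synovial TNFdARE Tconv.

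Of the prolyl hydroxylases, Egln3, which low oxygen is known to induce, was higher in every tissue comparison, and Egln1, the main oxygen sensor in most cells, was not. Egln3 (ENSMUSG00000035105, chromosome 12, 54178981 to 54203860) was between 4.71 and 10.1 CPM in joint-node Treg, between 9.26 and 26.7 in mesenteric Treg, between 44.1 and 73.7 in ileal Treg, and at 114.8, 114.3 and 140.9 (TNFdARE) and 30.1 and 85.7 (WT) in synovial Treg. In Tconv it was between 1.975 and 5.14 CPM in the joint nodes, between 3.69 and 14.6 in the mesenteric node, between 35.6 and 48.7 in the ileum, at 109.5 and 77.8 in the TNFdARE synovium and at 13.5 in the WT one. No tissue library overlapped those of its node. The log2 fold changes of Egln3 were 1.87 ± 0.17 in ileal Treg (adjusted p = 3.77e-05), 2.37 ± 0.15 in ileal Tconv (9.56e-08), 3.54 ± 0.25 in synovial Treg (6.75e-06) and 4.48 ± 0.23 in synovial TNFdARE Tconv (1.78e-06, edgeR). Egln1 was higher in synovial Treg (105.6 to 171.1 CPM, n = 5) than in joint-node Treg (72.4 to 96.2, n = 6), by 0.71 ± 0.09 on the log2 scale. It did not pass with TNFdARE libraries only (adjusted p = 0.0619). In ileal Tconv Egln1 was lower than in the node, at -0.43 ± 0.07, and in the other comparisons it did not pass.

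The other hypoxia targets fell into groups. Hilpda, which helps cells store lipid, Mxi1, a repressor related to the MYC network, Ndrg1, a stress-induced gene, and Vegfa, the vascular growth factor, were higher in both tissues and both cell types. Hilpda was between 13.3 and 20.7 CPM in mesenteric Treg, between 14.4 and 19.5 in joint-node Treg and between 106.1 and 136.2 in ileal Treg. The synovial Treg had 169.3, 113.2 and 154.5 CPM in TNFdARE and 36.7 and 184.4 in WT, all above the nodes. Its log2 fold change was 2.89 ± 0.14 in ileal and 2.95 ± 0.35 in synovial Treg, and 1.86 ± 0.09 in ileal and 2.20 ± 0.13 in synovial TNFdARE Tconv. The synovial Treg value was 2.15 without the WT B library. Ndrg1 was between 13.5 and 18.8 CPM in mesenteric Treg, 43.96 and 81.5 in ileal Treg, 23.9 and 32.7 in joint-node Treg and 82.7 and 158.0 in synovial Treg. For Ndrg1 these changes were 1.77 ± 0.20, 2.17 ± 0.15, 1.31 ± 0.17 and 2.66 ± 0.15, and for Mxi1 2.39 ± 0.20, 1.54 ± 0.20, 1.71 ± 0.16 and 0.92 ± 0.14. Vegfa was low throughout: it was between 0.04 and 1.47 CPM in node Treg, between 4.38 and 17.9 in ileal Treg and between 9.78 and 29.4 in synovial Treg. Its log2 fold change of 4.24 ± 0.80 in ileal Treg was 5.70 without the TNFdARE B mesenteric library. In synovial TNFdARE Tconv the call for Vegfa (13.2 and 6.00 CPM against 2.54, 4.84 and 1.32 in the joint nodes) was at an adjusted p of 0.0497. It was lost without the synovial A, joint-node A or joint-node C library (0.142 to 0.277), and at 0.114 with the experiment as a replicate block. The WT synovial Tconv library had 0 counts of Vegfa, which allows up to 0.143 CPM (3 counts, counting error only).

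Bnip3, a mitochondrial receptor for mitophagy (ENSMUSG00000078566, chromosome 7, 138890836 to 138909519), was high in the synovium alone among the sites. In Treg it was between 8.41 and 11.3 CPM in the joint nodes, between 7.79 and 14.5 in the mesenteric node and between 9.79 and 19.1 in the ileum, 3 sets of libraries that overlap. Synovial Treg had 116.8, 88.1 and 78.8 CPM in TNFdARE and 32.1 and 84.8 in WT. Tconv had between 9.70 and 13.4 CPM in the joint nodes and between 4.88 and 11.8 in the ileum, and 54.8 and 57.7 in the TNFdARE synovium, while the WT synovial Tconv library had 9.11. Its log2 fold change was 2.94 ± 0.25 in synovial Treg (adjusted p = 1.88e-05) and 2.44 ± 0.20 in synovial TNFdARE Tconv (2.38e-05). In the ileum it was 0.28 ± 0.22 in Treg and -0.13 ± 0.16 in Tconv, and neither passed the edgeR test. The related receptor Bnip3l was between 88.0 and 167.6 CPM in all 42 libraries and passed in no tissue comparison. P4ha1, a collagen prolyl hydroxylase, was lower in ileal Tconv (-0.50 ± 0.16), a call lost without the TNFdARE C library of the mesenteric node (adjusted p = 0.0986), and passed in no other. Ddit4, an inhibitor of mTORC1 that glucocorticoids also induce, was lower in tissue in all 4 comparisons. In Treg it was between 96.6 and 260.4 CPM in the mesenteric node and between 26.6 and 82.2 in the ileum, and its log2 fold changes were between -2.02 (ileal Tconv) and -1.23 (synovial Treg).

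**Figure D3:**
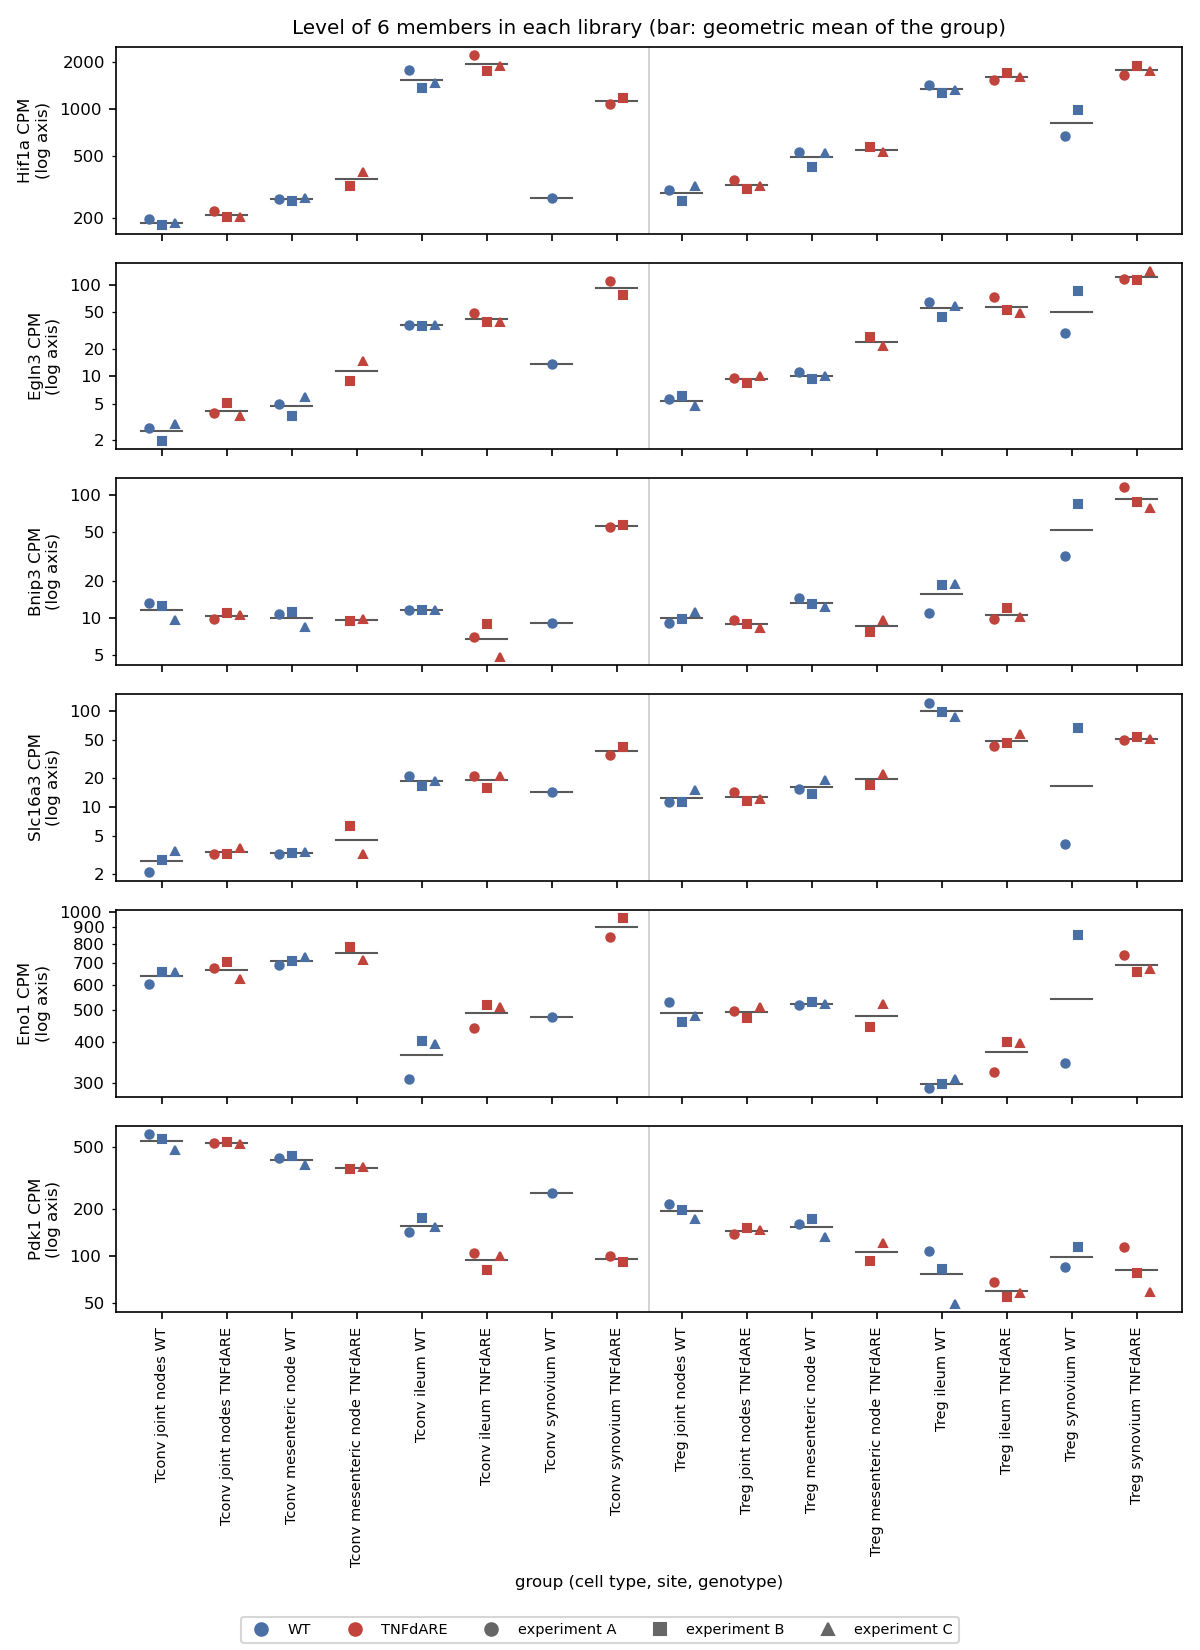
CPM of Hif1a, Egln3, Bnip3, Slc16a3, Eno1 and Pdk1 in each of the 42 libraries, by group, on log axes. Colour gives the genotype, marker shape the experiment, and the bar the geometric mean. Bnip3 is between 32.1 and 116.8 CPM in synovial Treg and at most 19.1 in all ileal and node libraries, while Pdk1 is highest in node Tconv.

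Among the transporters, the lactate exporter Slc16a3 (MCT4, chromosome 11, 120948480 to 120960868) had the largest tissue differences. In Treg it was between 13.8 and 22.1 CPM in the mesenteric node and at 43.7, 45.9 and 57.6 (TNFdARE) and 121.9, 98.1 and 85.6 (WT) in the ileum. Joint-node Treg had between 11.4 and 15.1 CPM, the TNFdARE synovial Treg 50.2, 53.5 and 51.4, and the WT ones 4.09 (A) and 66.5 (B). All synovial Treg except the WT A library were above the nodes. The log2 fold changes of Slc16a3 were 1.99 ± 0.15 in ileal Treg, 2.25 ± 0.18 in ileal Tconv, 1.73 ± 0.52 in synovial Treg (adjusted p = 0.0249) and 3.51 ± 0.25 in synovial TNFdARE Tconv. The synovial Treg call was lost without the WT synovial B library or any of 5 of the 6 joint-node libraries (all but WT C) (0.0508 to 0.373), with a log2 fold change of 0.18 without that synovial library, and at 0.0817 with the replicate block.

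Slc2a1 (GLUT1), the basal glucose transporter, was higher in all 4 comparisons by smaller amounts, with log2 fold changes of 0.46 ± 0.11 and 0.34 ± 0.07 in ileal Treg and Tconv and 0.92 ± 0.24 and 0.97 ± 0.12 in the synovial cells. Without either TNFdARE library of the mesenteric node the ileal Treg call was lost (0.0507 to 0.0946). Slc2a3 (GLUT3), the high-affinity glucose transporter, passed in Tconv and not in Treg. In Tconv it was between 46.7 and 55.9 CPM in the mesenteric node, between 56.8 and 143.1 in the ileum and at 153.6 and 188.9 in the TNFdARE synovium, and it rose in both tissues (log2 fold changes of 0.91 ± 0.09 and 1.85 ± 0.11). Treg of the nodes already had between 121.3 and 238.4 CPM of Slc2a3, and it passed in neither tissue comparison of Treg (0.04 ± 0.17 and 0.07 ± 0.23). Slc16a1 (MCT1), the transporter that takes lactate in or out, was higher in ileal Tconv (0.64 ± 0.09). Its calls in ileal Treg (0.36 ± 0.12) and synovial TNFdARE Tconv (0.38 ± 0.12) were lost in 9 of 11 and in 4 of 5 refits that left out a library (adjusted p between 0.0542 and 0.225, and between 0.0797 and 0.139). With the replicate block they were at 0.0579 and 0.0612. The WT A synovial Treg library had 3 counts of Slc16a1, or 0.15 CPM, against 13.8 to 66.8 in the other 4.

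In the upper part of glycolysis, Hk2, the inducible hexokinase, had the widest range of median CPM among the enzymes over the 8 combinations of cell type and site, 49.2-fold, and Hk1, the constitutive one, the narrowest, 1.26-fold. Hk2 was between 0.18 and 2.755 CPM in joint-node Tconv, between 0.65 and 1.98 in mesenteric Tconv and between 15.99 and 36.1 in ileal Tconv, a log2 fold change of 4.18 ± 0.37 (adjusted p = 1.38e-06). TNFdARE synovial Tconv had 13.6 and 9.85 CPM of Hk2 (4.05 ± 1.00, 0.0134), a call lost without the joint-node A or C library (0.0532 to 0.0611). Without the joint-node B library, which had 29599 genes detected, the Hk2 difference was 5.12. Ileal Treg had 30.04, 9.73 and 9.39 CPM in TNFdARE and 7.40, 7.96 and 3.88 in WT, against 2.31 to 4.71 in the mesenteric node (1.70 ± 0.39, 0.011), and this call was lost without either TNFdARE mesenteric library (0.0572 to 0.075). In synovial Treg Hk2 spread from 0.70 (WT A) to 51.5 CPM (WT B) and did not pass. Per kilobase of exon, Hk1 was at a median of 27.1 to 34.2 CPM in each cell type and site, far above Hk2, whose highest median was 3.56 in ileal Tconv. Among the phosphofructokinases, which catalyse the committed step, Pfkp was higher in all 4 comparisons (log2 fold changes of 0.49 to 1.01) and Pfkl in 3 of them. Pfkm was lower in ileal Tconv (-0.45 ± 0.14), which was lost without the TNFdARE C mesenteric library (0.0683).

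The isozymes of these steps were balanced differently between sites, as ratios within a library that carry no test. Hk1 was above Hk2 per kilobase in every library, by 34.4 to 84 times in node Treg and 54.4 to 866 times in node Tconv. The Tconv ratios rest on few Hk2 counts, 4 in the joint-node library with 866 (WT B). The lowest joint-node Tconv ratios, 54.4 (WT C) and 118 (TNFdARE B), were in the libraries with most genes detected. The ratio was 4.33 to 11 in ileal Tconv and 5.17 to 33.3 in ileal Treg, and from 3.22 (WT B) to 238 (TNFdARE C) in synovial Treg. Of the summed phosphofructokinase level per kilobase, Pfkp made up 51.1% to 61.6% in ileal Tconv, 36.2% to 50.7% in ileal Treg and 36.8% to 46% in the nodes of both cell types. Pfkm, the muscle form, made up 10% to 22.2% in the nodes and 5.57% to 9.88% in ileal Tconv. Pfkl was the larger share in TNFdARE synovial Treg (55.8%, 44.8% and 48.9%) and Pfkp in the WT ones (42.5% and 56.6%).

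Of the middle steps, Tpi1, triose phosphate isomerase, was higher in all 4 comparisons. In Treg it was between 59.0 and 94.6 CPM in the mesenteric node, between 112.1 and 149.6 in the ileum, between 48.2 and 62.5 in the joint nodes and at 306.2, 258.7 and 269.8 in the TNFdARE synovium. WT synovial Treg had 57.0 (A) and 308.7 (B) CPM, so the A library lay within the nodes. Tpi1 rose by 0.73 ± 0.12 and 1.13 ± 0.08 on the log2 scale in ileal Treg and Tconv and by 2.02 ± 0.33 and 2.71 ± 0.13 in the synovial cells. The synovial Treg value was 1.19 without the WT B library. Gapdh rose in all 4 comparisons too (1.08 to 1.76), and its calls in ileal Treg (lost without either TNFdARE mesenteric library, 0.0519 to 0.0691) and in synovial Treg (lost with TNFdARE libraries only, 0.0936) were less stable. Aldoa, the aldolase with the higher level per kilobase, was between 253.9 and 317.6 CPM in joint-node Treg and at 1154, 907.1 and 922.7 (TNFdARE) and 342.9 and 829.8 (WT) in synovial Treg, all above the nodes. It rose in ileal Treg (0.48 ± 0.10) and in the synovium of both cell types (1.41 ± 0.19 and 0.89 ± 0.10). Aldoc, at a median of at most 21.2 CPM, rose in ileal Tconv and in both synovial comparisons (1.81 to 3.06), where the synovial Treg value of 2.11 was 1.49 without the WT A library. Gpi1 passed in Tconv alone (0.36 ± 0.06 in the ileum and 0.67 ± 0.09 in the synovium).

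Pgk1, Pgam1, Pkm and Ldha act in the lower steps, from the formation of 3-phosphoglycerate to lactate. They were higher in TNFdARE synovial Tconv by 1.11 ± 0.12, 1.17 ± 0.14, 1.14 ± 0.13 and 0.92 ± 0.08 on the log2 scale. In synovial Treg, Pgam1 (0.85 ± 0.28, adjusted p = 0.0357), Pkm (1.01 ± 0.18) and Ldha (0.71 ± 0.13) were higher, and Pgk1 (0.87 ± 0.41) did not pass until the WT libraries were left out (1.16, 0.00343). Pkm was between 586.1 and 820.1 CPM in joint-node Treg and at 1453, 1829 and 1533 (TNFdARE) and 732.3 and 1633 (WT) in synovial Treg, where again the WT A library fell among the nodes. The Pgam1 call was lost in 9 of 11 refits without a library (0.0529 to 0.135, kept without either A synovial library) and at 0.0816 with the replicate block. In the ileum Pgk1 and Pgam1 passed in neither cell type and Pkm in Tconv alone (0.31 ± 0.06). Ldha was not higher there. It was between 774.3 and 1136 CPM in ileal and between 1037 and 1235 in mesenteric Tconv, and fell by 0.21 ± 0.07, a call lost in 4 of 11 refits (without ileal TNFdARE A or WT A, or mesenteric TNFdARE B or WT C, 0.0544 to 0.101).

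Eno1, alpha-enolase, was lower in the ileum and higher in the TNFdARE synovium. In Treg it was between 444.6 and 530.5 CPM in the mesenteric node and at 323.8, 398.8 and 397.8 (TNFdARE) and 288.9, 297.5 and 307.7 (WT) in the ileum, so every ileal library was below every mesenteric one. Synovial Treg had 739.4, 653.6 and 670.7 CPM in TNFdARE and 345.9 and 851.0 in WT, against 461.5 to 532.1 in the joint nodes. Eno1 fell by 0.59 ± 0.09 in ileal Treg (adjusted p = 0.000931) and by 0.77 ± 0.08 in ileal Tconv (6.77e-06) on the log2 scale. In TNFdARE synovial Tconv (841.6 and 957.2 CPM against 672.1, 704.0 and 625.8) it rose by 0.45 ± 0.09 (0.00584), a call lost without the joint-node C library (0.0611). In synovial Treg it did not pass with all libraries (0.36 ± 0.19) and did with TNFdARE libraries only (0.48, 0.0146). Gapdh, Pgk1, Pgam1, Tpi1, Ldha, Aldoa and Eno1 have near-identical copies in the genome, and reads shared with them could be lost or split by the counting. The copy Eno1b had 811 counts in all libraries together.

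Of the 3 regulators, Pdk1, the kinase that shuts pyruvate dehydrogenase and a textbook HIF1A target, was lower in tissue in all 4 comparisons. Tconv had between 364.2 and 441.3 CPM of Pdk1 in the mesenteric node, between 81.5 and 175.1 in the ileum, between 481.0 and 606.9 in the joint nodes and 99.4 and 91.6 in the TNFdARE synovium. Its log2 fold change was -1.68 ± 0.08 in ileal and -2.45 ± 0.15 in synovial TNFdARE Tconv, and -0.90 in both tissues of Treg (SE 0.18 and 0.17). Pfkfb3, which makes an activator of phosphofructokinase, was higher in ileal Tconv alone (0.28 ± 0.08), a call lost without the TNFdARE B mesenteric library (0.0567). Pfkfb4 was low, at a median of at most 11.6 CPM in any cell type and site, and had 0 counts in 3 of 5 synovial Treg libraries, which allows up to 0.133 to 0.15 CPM each. Ldhb, the lactate dehydrogenase subunit that favours pyruvate, fell by 0.52 ± 0.16 and 0.73 ± 0.10 in ileal Treg and Tconv and by 1.14 ± 0.26 and 2.05 ± 0.34 in the synovial cells. Without the TNFdARE B synovial Tconv library the last value of Ldhb was -2.94. Its ileal Treg call (adjusted p = 0.0393) was lost in 8 of 11 refits without a library (0.0592 to 0.121).

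The ratio of Ldha to Ldhb, each as CPM per kilobase, is given as a description with no test. It was between 7.16 and 10.7 in the joint nodes of both cell types. Ileal Tconv had 23, 31.3 and 31.2 in TNFdARE against 13.3, 15 and 16.7 in WT, and ileal Treg 24.6, 22.1 and 18.3 against 14.9, 9.74 and 9.35. In the mesenteric node TNFdARE Treg had 13.6 and 15.8, and WT Treg 9.40, 7.40 and 8.60. Mesenteric Tconv had 14.4 and 20 in TNFdARE and 12.5, 10.9 and 13.5 in WT. The genotypes did not overlap in any of these pairs, and they did in both cell types of the joint nodes. In the synovium the ratio was 41.9, 45.9 and 54.9 in TNFdARE Treg and 143 and 59.2 in TNFdARE Tconv, while WT Treg had 8.74 (A) and 42.9 (B) and the WT Tconv library 18.9.

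**Figure D4:**
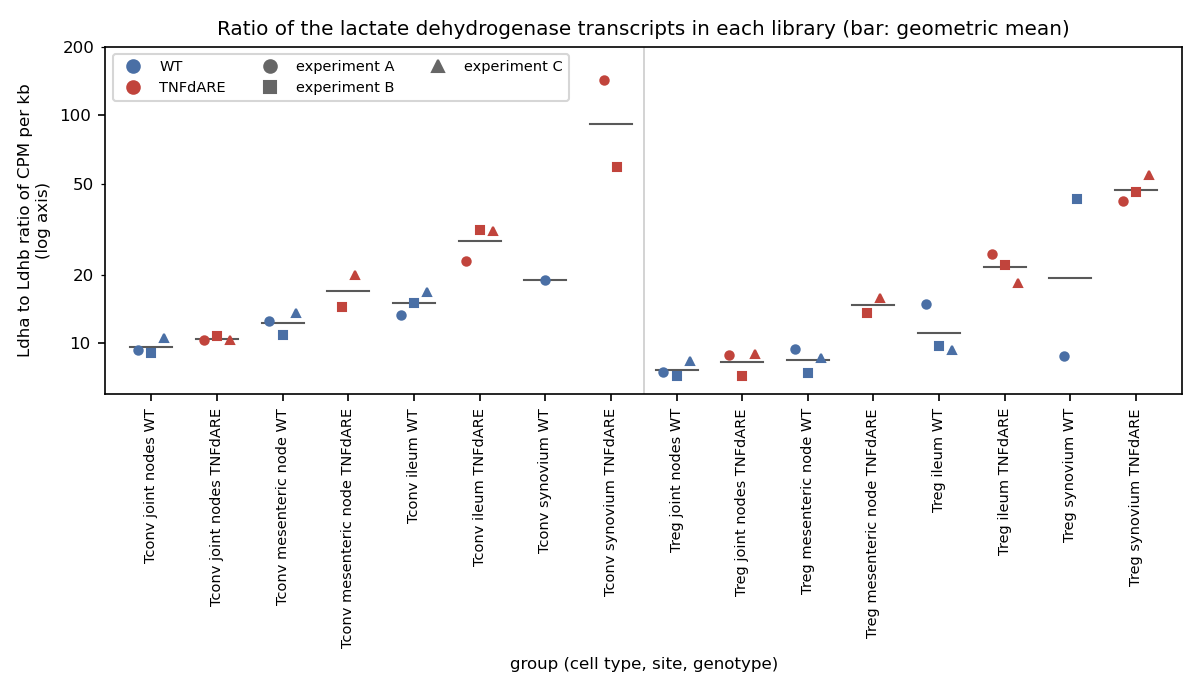
Ratio of Ldha to Ldhb in CPM per kilobase of exon in each of the 42 libraries, by group, on a log axis. Colour gives the genotype, marker shape the experiment, and the bar the geometric mean. Joint-node libraries lie between 7.16 and 10.7, and the highest value, 143, is a TNFdARE synovial Tconv library.

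Other measures moved with tissue. The 5 plasma cell markers summed to between 257 and 9703 CPM in ileal and 3.234 and 27.04 in mesenteric Treg, and to between 123.3 and 399.3 against 0.8723 and 36.68 in Tconv. The 6 epithelial markers had a median sum of 287.8 CPM in ileal and 24.93 in mesenteric Treg, and of 34.61 and 7.196 in Tconv, with Fabp2 at 0 in the mesenteric node of both cell types. All 5 and all 6 passed as higher in the ileum of both cell types. The 6 fibroblast markers summed to between 0 and 7.56 CPM in node libraries, with Lum at 0 in all node Treg, and Dcn and Lum at 0 in all mesenteric Tconv. They summed to between 3.48 and 296.6 CPM in ileal Tconv, 15.6 and 2112 in ileal Treg, 271.9 and 1907 in synovial Tconv, and 1419 and 16120 in synovial Treg. All 6 passed as higher in 3 of the tissue comparisons, and 5 of 6 in synovial Tconv. The median sums of the 4 endothelial and of the 4 CD4 T cell markers were lower in tissue than in node in both cell types. A list of 15 genes that tissue dissociation is known to induce summed to between 12220 and 25300 CPM in tissue and between 2708 and 9553 in nodes, and 8, 12, 15 and 9 of the 15 were higher (ileal Treg, ileal Tconv, synovial Treg, synovial Tconv). Of 18 proliferation genes, 3, 17, 7 and 17 were higher in the same order. Of all genes 17%, 34.3%, 19.2% and 17.2% were higher, so the proliferation count in ileal Treg was near the background. The part of these markers and lists in the differences was not tested. The sample-sheet number was 33 and above in 10 of the 42 libraries. These were synovial libraries (33, 34, 37, 39, 40 and 41), ileal Treg (35, 38 and 42) and the WT C Treg of the joint nodes (44). With this number as a covariate, Gapdh, Hk2, Ldhb and Slc16a1 were lost in ileal Treg (0.0548 to 0.213). In synovial Treg Slc2a1, Ldhb, Pfkl, Slc16a3 and Pgam1 were lost (0.065 to 0.211). The covariate largely follows site, so its part in these losses cannot be told apart from that of site. In the ileal Tconv library with 3.48 CPM of fibroblast markers (WT C), Hif1a was at 1476 CPM and Egln3 at 36.3, within the range of the other ileal Tconv. That library also had 246.9 CPM of plasma cell markers and 16260 CPM of the dissociation list. As 1 library of 1 site it does not test the part of other cells. No synovial Treg library had below 1419 CPM of fibroblast markers.

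Gene lists of the wider pathway, chosen like the 34 with results of these data known, were read out of the same fits. Of 30 further known hypoxia targets, 11 were higher and 1 lower in ileal Treg, 12 and 7 of 28 tested in ileal Tconv, and 16 and 2 in the synovium of either cell type. In the same order 17%, 34.3%, 19.2% and 17.2% of all genes were higher and 12.2%, 26.7%, 18.5% and 14.1% lower, so the counts in ileal Tconv were near the background. Bhlhe40 (a repressor), Nfil3 and Rora (lymphocyte transcription factors) had the smallest adjusted p among them in both ileal comparisons, and all 3 also respond to signals other than oxygen. The log2 fold change of Bhlhe40 was 4.73 ± 0.26 in ileal Treg, 7.68 ± 0.17 in ileal Tconv, 4.15 ± 0.29 in synovial Treg and 6.597 ± 0.21 in synovial TNFdARE Tconv. Of 14 further genes of the HIF pathway, 4 were higher and 3 lower in ileal Treg, and 6 and 4 in ileal Tconv. In synovial Treg these were 3 and 3, and in synovial TNFdARE Tconv 4 and 4. The counts in ileal Tconv and in synovial Treg were near the background, and all are small counts of 14. Among the 14 genes Epas1, which encodes HIF2A, rose by 6.22 ± 0.45 in ileal and 4.35 ± 0.83 in synovial Treg. Vhl, which targets HIF1A for destruction, fell by 0.67 ± 0.17 in ileal Treg. Fibroblasts and endothelial cells also express Epas1. The 4 endothelial markers had a median sum of 94 CPM in ileal and 182.7 in mesenteric Treg. In synovial and joint-node Treg it was 152.8 and 212.7. The part of these cells in the Epas1 values was not tested. Of 14 other glycolytic genes tested, 2 were higher and 4 lower in synovial Treg, and of 15 genes of the tricarboxylic acid cycle 2 and 3.

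Between the 2 tissues, ileal and synovial Treg were compared directly, with both genotypes at equal weight. Mxi1 was higher in the ileum and Eno1, Bnip3, Egln1 and Ndrg1 were higher in the synovium, 1 and 4 of the 34 genes, where 4.71% of all genes were higher and 2.71% lower in the ileum. Bnip3 was lower in the ileum by 2.46 ± 0.28 on the log2 scale (adjusted p = 0.000995), Egln1 by 0.92 ± 0.11 (0.00131), Ndrg1 by 1.16 ± 0.21 (0.00963) and Eno1 by 0.91 ± 0.20 (0.0224). No ileal library reached a synovial one for Bnip3, Egln1 or Ndrg1. For Eno1 the WT A synovial library, at 345.9 CPM, lay within the ileal range, and the call was lost without ileal TNFdARE A, WT A or TNFdARE B or synovial TNFdARE A (0.0509 to 0.0587). Mxi1 was between 181.0 and 343.4 CPM in the ileum and between 68.0 and 168.3 in the synovium (1.07 ± 0.28, 0.0472), and this call was lost in 9 of 11 refits without a library (0.0625 to 0.115) and at 0.0865 with the replicate block.

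This comparison turned on the 2 WT synovial libraries. Without the WT A library, 12 of the 34 genes were lower in the ileum and none higher: Eno1, Bnip3, Egln1 and Ndrg1 stayed, and Aldoa, Tpi1, Pgk1, Pgam1, Pkm, Ldha, Slc2a1 and Egln3 joined them. With TNFdARE libraries only, 10 were lower and 0 higher, among them Aldoa (-0.93), Tpi1 (-1.03), Pkm (-0.72) and Ldha (-0.70), and Egln1 (0.0745) and Mxi1 (0.0877) were lost. Without the WT B library instead, 7 were higher and 5 lower, with Slc16a1 at 4.28 and Slc16a3 at 2.31 among the higher ones. The medians over the 34 genes and over all genes were -0.34 and 0.13 with all libraries.

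Treg were compared with Tconv of the same site, with both genotypes at equal weight in the ileum and the nodes. In the mesenteric node 10 of the 34 genes were higher and 9 lower in Treg (20.8% and 17.8% of all genes), and in the joint nodes 10 and 12 (22.1% and 21.2%). These shares, small counts of 34, were somewhat above the background in both directions, and the excess was not tested. Slc16a3, Slc2a3, Hk2, Aldoc, Egln3, Tpi1, Hif1a, P4ha1, Ndrg1 and Mxi1 were higher in each node. Pdk1, Aldoa, Eno1, Ldha, Pfkp, Egln1, Slc16a1, Hilpda and Pfkfb4 were lower in each, and Pgk1, Pkm and Vegfa passed as lower in the joint nodes. The median log2 difference over the 34 genes was -0.09 in the mesenteric and -0.06 in the joint nodes, and that over all genes 0.02 and 0.00.

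Slc16a3 had the largest log2 difference among the genes called higher in Treg of each node with all libraries in. Hk2 was close to it in the joint nodes, at 1.98 ± 0.52, and above it, at 2.79, without the WT C Tconv library. Without both Tconv libraries with most genes detected Hk2 was at 3.33 and Slc16a3 at 2.08. In the joint nodes Slc16a3 was between 11.4 and 15.1 CPM in Treg and between 2.10 and 3.72 in Tconv, and its log2 difference was 2.04 ± 0.14 there and 2.15 ± 0.20 in the mesenteric node (adjusted p = 2.93e-08 and 3.61e-06). Slc2a3 was between 121.3 and 178.1 CPM in Treg and between 47.8 and 57.7 in Tconv of the joint nodes (1.60 ± 0.07, and 1.86 ± 0.09 in the mesenteric node). Neither gene overlapped between the cell types in the nodes. Pdk1 went the other way, at 139.0 to 214.7 CPM in Treg and 481.0 to 606.9 in Tconv of the joint nodes, with differences of -1.68 ± 0.08 and -1.60 ± 0.09. Hif1a was higher in Treg of both nodes by 0.65 ± 0.07 and 0.77 ± 0.08, and Egln3 by 1.13 ± 0.15 and 1.05 ± 0.18. Several enzymes of the main chain were lower in Treg by less: Aldoa by -0.73 ± 0.05 and -0.61 ± 0.06, Eno1 by -0.39 ± 0.05 and -0.53 ± 0.06, and Ldha by -0.26 ± 0.05 and -0.33 ± 0.06 (joint nodes first). The calls of Pgk1 and Pkm in the joint nodes were lost in 7 and 8 of 12 refits without a library (0.0654 to 0.101 and 0.0809 to 0.121), and that of Vegfa without the TNFdARE B Tconv library (0.0509). In the mesenteric node Hilpda was lost in 6 of 10 (0.0679 to 0.122), Pfkfb4 in 5 of 10 (0.0695 to 0.175), Ndrg1 in 3 of 10 (0.0525 to 0.126) and Hk2 without the TNFdARE B Tconv library (0.0553). Of the 18 proliferation genes 6 were higher and 1 lower in mesenteric and 14 and 0 in joint-node Treg, and their part was not tested. Of 15 tricarboxylic acid cycle genes, 0 were higher and 7 lower in mesenteric and 0 and 9 in joint-node Treg, with the smallest adjusted p for Idh2, a mitochondrial isocitrate dehydrogenase (-1.49 ± 0.10 and -1.43 ± 0.08).

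In the ileum 7 of the 34 genes were higher and 7 lower in Treg, where 7.93% and 6.85% of all genes were. Slc16a3 (1.90 ± 0.13), Mxi1 (1.28 ± 0.22), Slc2a3 (1.00 ± 0.15), P4ha1 (0.92 ± 0.18), Ndrg1 (0.90 ± 0.21), Hilpda (0.63 ± 0.08) and Egln3 (0.57 ± 0.14) were higher. Hk2 (-1.16 ± 0.35), Pdk1 (-0.81 ± 0.16), Slc16a1 (-0.80 ± 0.10), Pfkp (-0.54 ± 0.11), Pgk1 (-0.45 ± 0.10), Eno1 (-0.34 ± 0.10) and Egln1 (-0.32 ± 0.09) were lower. With the sample-sheet number as a covariate, 7 calls remained, 4 higher and 3 lower, and Hk2, Pgk1, Eno1, Egln1, Egln3, Ndrg1 and P4ha1 were lost. Without 1 library at a time, Hk2 was lost in 10 of 12 refits (0.0542 to 0.112), Egln1 in 8 (0.06 to 0.107), Eno1 in 6 (0.0634 to 0.0871) and Egln3 in 2 (without the TNFdARE B or C Tconv library, 0.0522 to 0.0578). Plasma cell markers were present in every ileal Treg library and highest in experiment A (9703 and 3243 CPM, against 257 to 1042 in B and C). Without the ileal Treg of A, Egln1, Egln3 and Eno1 were lost.

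In the TNFdARE synovium 0 of the 34 genes passed in either direction, as did 0% of all 17959 genes tested. The cells labelled Tconv in this comparison were not low in Foxp3 (618.5 and 615.4 CPM, against 1349 to 1465 in Treg), and 0 of the 4 Treg markers passed. With 3 Treg and 2 Tconv libraries, 1 of the 34 had an unadjusted p below 0.05 in edgeR, Hif1a, at 1674, 1901 and 1764 CPM in Treg and 1088 and 1181 in Tconv. DESeq2 called this gene (log2 difference of 0.67, adjusted p = 0.0203).

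The change from node to ileum differed between the cell types for 5 of the 34 genes in an edgeR interaction test, 2 larger and 3 smaller in Treg, where 1.41% of all genes were larger and 4.84% smaller. Hilpda was 0.40 ± 0.14 lower in Treg than Tconv in the mesenteric node and 0.63 ± 0.08 higher in the ileum, on the log2 scale. Its rise from node to ileum was larger in Treg by 1.03 ± 0.16 (adjusted p = 0.000456). Hk2 was higher in Treg in the node and lower in the ileum, and its interaction was -2.47 ± 0.53 (0.00666). The rise of Hif1a was smaller in Treg (interaction -0.996 ± 0.13, 4.72e-05). Slc2a3 (-0.865 ± 0.21, 0.0145) and Pdk1 (0.79 ± 0.20, 0.0247) passed as well, and were lost with the sample-sheet number as a covariate (0.111 and 0.0946).

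TNFdARE and WT littermates were compared within each cell type and site, the comparison the study was designed for. Few of the 34 genes passed. In edgeR's test 0 were higher and 1 lower in ileal Treg (0.484% and 0.245% of all genes), 3 and 2 in mesenteric Treg (3.84% and 1.84%), 2 and 1 in joint-node Treg (3.36% and 2.34%) and 0 and 0 in synovial Treg (0.111% and 0.0445%). In Tconv these were 0 and 0 in the ileum (1.17% and 0.138%), 1 and 0 in the mesenteric node (1.79% and 0.574%) and 0 and 0 in the joint nodes (2.29% and 0.504%). The shares are small counts of 34 and are near the background in most of these comparisons. In mesenteric Treg they were somewhat above it in both directions, and the excess was not tested.

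**Figure D5:**
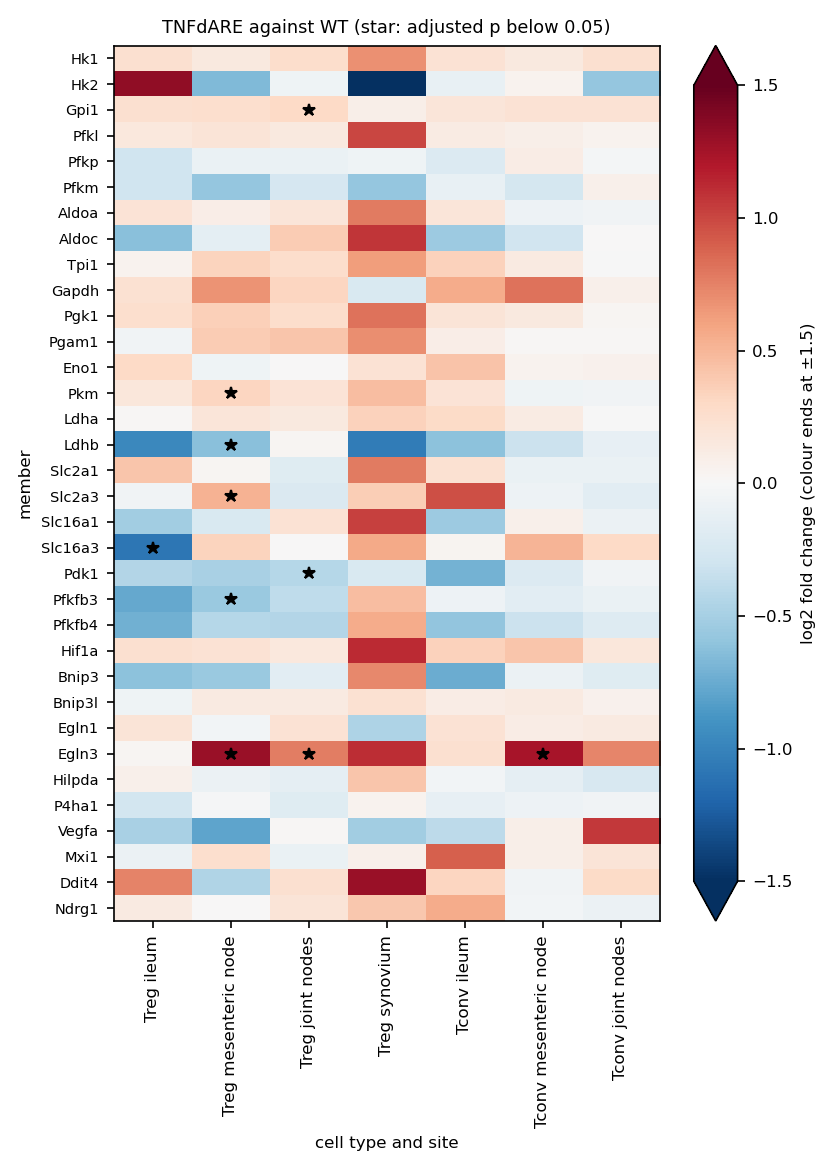
Log2 fold change of TNFdARE against WT for each of the 34 genes in 7 comparisons (edgeR), as colour that ends at ±1.5, with a star where the adjusted p is below 0.05. Egln3 has a star in mesenteric Treg, joint-node Treg and mesenteric Tconv, and no column has more than the 5 stars of mesenteric Treg.

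Egln3 was the gene called in most of these comparisons. In mesenteric Treg it was 26.7 and 21.3 CPM in TNFdARE and 11.2, 9.26 and 10.1 in WT, a log2 fold change of 1.29 ± 0.24 (adjusted p = 0.00867). In joint-node Treg it was 9.72, 8.40 and 10.1 CPM against 5.61, 6.09 and 4.71 (0.77 ± 0.20, 0.0393), and in mesenteric Tconv 8.82 and 14.6 against 4.97, 3.69 and 5.98 (1.23 ± 0.25, 0.0216). The genotypes did not overlap in any of the 3, which were picked by the test on the same values. Joint-node Tconv had 3.98, 5.14 and 3.72 CPM against 2.73, 1.975 and 3.03, also without overlap, and did not pass (0.74 ± 0.21, 0.108). In ileal Treg the levels of Egln3 overlapped, at 73.7, 52.9 and 49.7 CPM against 65.2, 44.1 and 58.4. The mesenteric Treg call was lost without the TNFdARE B library (0.126), the mesenteric Tconv call without WT A, WT B or TNFdARE C (0.0706 to 0.274), and the joint-node Treg call without any 1 of its 6 libraries (0.0554 to 0.146), with no filter on low counts (0.12) and with the sheet number as a covariate (0.145). In the Tconv libraries of the mesenteric node Foxp3, a Treg marker, was at 21.4 and 36.6 CPM in TNFdARE and 7.11, 6.17 and 6.51 in WT, and its part in the Egln3 difference was not tested. The genotype effect on Egln3 was not called different between Treg and Tconv: in the interaction tests 0 of the 34 genes passed in the joint nodes (0.0681% of all genes larger and 0.381% smaller in Treg) and 0 in the mesenteric node (0.0742% and 0.135%). There, 4 and 3 of the 34 had an unadjusted p below 0.05 in edgeR, and DESeq2 called 0 in both.

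The other calls in node Treg were smaller. In mesenteric Treg, Slc2a3 was at 238.4 and 183.7 CPM in TNFdARE and 163.5, 152.7 and 143.0 in WT (log2 fold change 0.52 ± 0.12, adjusted p = 0.023), and Pkm at 840.4 and 854.8 against 729.3, 697.6 and 690.7 (0.32 ± 0.07, 0.026). Pfkfb3 was lower, at 23.03 and 22.1 CPM against 36.1, 35.5 and 31.6 (-0.55 ± 0.12, 0.0203), as was Ldhb, at 31.6 and 30.4 against 45.2, 55.0 and 48.3 (-0.62 ± 0.15, 0.0342). None of these 4 overlapped between genotypes, with 2 TNFdARE and 3 WT libraries and genes picked by the test on the same values. Each call was lost in some refits without a library: Slc2a3 in 3 of 5 (TNFdARE B, WT B or WT C, 0.0681 to 0.339), Pkm in 4 (all but WT A, 0.0674 to 0.187), Pfkfb3 in 4 (all but WT C, 0.0581 to 0.122) and Ldhb in all 5 (0.0504 to 0.164). In joint-node Treg, Pdk1 was lower at 139.0, 150.5 and 146.5 CPM against 214.7, 196.0 and 171.6 (-0.42 ± 0.11, 0.0365), and Gpi1, glucose-6-phosphate isomerase, higher at 190.4, 163.5 and 194.6 against 156.6, 140.8 and 145.9 (0.30 ± 0.08, 0.0486). These calls were lost in 5 of 6 refits (all but without WT C, 0.0968 to 0.187) and in 4 of 6 (without TNFdARE A or C or WT B or C, 0.162 to 0.246). With the replicate block, which pairs libraries by experiment, 6 of the 34 passed in joint-node Treg: Hk1 (0.27, 0.0145), Pgam1 (0.42, 0.0337) and Pfkfb3 (-0.38, 0.0447) joined the 3.

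In ileal Treg the one call was Slc16a3, at 43.7, 45.9 and 57.6 CPM in TNFdARE and 121.9, 98.1 and 85.6 in WT, without overlap (log2 fold change -1.08 ± 0.18, adjusted p = 0.0246). It was lost without TNFdARE A, WT A or TNFdARE B (0.0788 to 0.134) and with the sample-sheet number as a covariate (0.0548). The sheet number was 33 or above in TNFdARE A (35) and in WT A and C (38 and 42). In ileal Tconv no gene of the 34 passed in edgeR, 9 had an unadjusted p below 0.05, and DESeq2 called 3 (Slc2a3, Eno1 and Slc16a1). With the replicate block 4 passed: Slc2a3 (116.8, 143.1 and 127.2 CPM against 65.5, 77.7 and 56.8, log2 fold change 0.97, adjusted p = 0.0406), Mxi1 (175.0, 96.1 and 144.6 against 93.6, 73.5 and 58.6, 0.88, 0.0214), Eno1 (440.2, 520.4 and 511.7 against 308.0, 402.4 and 394.3, 0.43, 0.043) and Slc16a1 (83.0, 61.2 and 72.9 against 116.1, 97.5 and 106.5, -0.55, 0.0356). The genotypes do not overlap in any of these 4, which were picked by the test on the same values. In the same ileal Tconv libraries Foxp3 was at 199.8, 123.8 and 115.2 CPM in TNFdARE and 18.5, 13.4 and 16.7 in WT, and its part was not tested. In joint-node Tconv 0 passed, 3 had an unadjusted p below 0.05, DESeq2 called 0, and Hk1 passed with the block (0.24, 0.0451).

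In synovial Treg no call was made, and the 2 WT libraries disagree. TNFdARE Treg had 306.2, 258.7 and 269.8 CPM of Tpi1 against 57.0 (A) and 308.7 (B) in WT, 1615, 1388 and 1442 of Ldha against 857.5 and 1509, and 50.2, 53.5 and 51.4 of Slc16a3 against 4.09 and 66.5. For each of these the WT A library was below and the WT B library within or above the TNFdARE range. Hif1a was at 1674, 1901 and 1764 CPM against 676.3 and 990.8, with both WT libraries below (log2 fold change 1.11 ± 0.21, adjusted p = 0.131). In edgeR 5 of the 34 had an unadjusted p below 0.05. DESeq2 called 3: Pfkl (0.93, 0.0221), Hif1a (1.05, 1.03e-06) and Ddit4 (1.22, 0.0265), and in each of the 3 both WT libraries were below every TNFdARE one. With no filter on low counts edgeR called Hif1a alone (1.10, 0.0379). Without the WT B library 13 of the 34 were higher in TNFdARE, the least for Eno1 (0.99), a comparison with the single WT A library, which is assumed to vary like the other groups. Without WT A there was no call. The median over the 34 genes was 0.44, and that over all genes 0.12. The fibroblast sums of the 2 WT libraries, 16120 and 13260 CPM, were above the 1419 to 6055 CPM of the TNFdARE ones, and their part was not tested.

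Outside the 34, Bhlhe40 was the hypoxia target called in most genotype comparisons. Its log2 fold change was 0.92 ± 0.15 in ileal, 2.25 ± 0.30 in mesenteric and 1.97 ± 0.25 in joint-node Treg, and 1.06 ± 0.15, 2.31 ± 0.33 and 1.80 ± 0.28 in Tconv of the same sites. In synovial Treg it did not pass. Of the 30 further hypoxia targets, between 0 and 3 were higher and 0 lower in each of the 7 genotype comparisons.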

How the data were processed

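RNA-seq was made from sorted Treg and Tconv with the SMART-Seq v4 PLUS kit from 100 pg or 2 ng of RNA, per the labels' protocols, which do not say which library had which input. The authors deposited raw counts per gene for 42 libraries. The submitters' processing notes name cutadapt 1.15, Bowtie2 2.3.3.1 and GRCm38; the counting program, strand setting and annotation are not given in the sources used here. A deposited FPKM table was not used, because its sorted values were nearly alike between libraries. Whether the genome or transcripts were aligned is not given there either.

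Counts were scaled by TMM factors and are given as CPM, with a prior count of 2 for log2 CPM. Sums over the marker and dissociation lists are CPM without TMM factors. The 19 comparisons came from 10 fits of edgeR's quasi-likelihood test (edgeR 4.0.16, R 4.3.3) after its filter on low counts, with p-values Benjamini-Hochberg adjusted over all genes tested and a threshold of 0.05. The scripts were tested on simulated counts. Comparisons of sites or cell types gave both genotypes equal weight, apart from those with synovial Tconv, which used the TNFdARE groups alone. Levels between genes were compared only as CPM per kilobase of exon. Alternatives were DESeq2 1.42.0, no filter, the experiment as a replicate block, the sample-sheet number as a covariate, TNFdARE libraries only and leaving out each library in turn.

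The letters mark the shared experiment. In a check of whether same-lettered groups deviate together, 10 of 18 pairs of groups had a correlation above 0.1 (lowest -0.243, median 0.108, highest 0.408). No 2 libraries were identical. Where groups are said not to overlap, the share of all genes without overlap was not counted, and this lends the calls no support. The 34 genes and the other lists were chosen with earlier results of these data known. All 34 are described; of the other lists, up to 4 genes a list and comparison could be named, those that passed with the smallest adjusted p.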

Additional observations from a re-analysis of the deposited data

Results flagged for a closer look

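For 5 of the 34 genes the difference between ileum and mesenteric node was not the same in Treg and Tconv, by an edgeR interaction test with Benjamini-Hochberg adjustment over all genes tested. The interaction, Treg minus Tconv on the log2 scale, was -2.466 for Hk2 (adjusted p = 0.00666), -0.865 for Slc2a3 (0.0145), 0.786 for Pdk1 (0.0247), -0.996 for Hif1a (4.72e-05) and 1.027 for Hilpda (0.000456). Hk2 and Hilpda changed sign between the sites: Hk2 was higher in Treg than Tconv by 1.30 in the node and lower by -1.16 in the ileum, and Hilpda went from -0.40 to 0.63. Hif1a rose in both cell types, by 1.496 in Treg and 2.50 in Tconv, and Pdk1 fell in both, by 0.90 and 1.68. With the sample-sheet number as a covariate Hk2, Hif1a and Hilpda passed and Slc2a3 (0.111) and Pdk1 (0.0946) did not. The causes were not tested.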

How the results depend on the processing

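Of the 169 calls on the 34 genes, 164 were refitted without each of their libraries in turn. Of these 1603 values, 1440 stayed past the threshold and 163 did not, with 0 reversed. Under the other settings 684 of 734 stayed past it and 50 did not, with 0 reversed. The number of the 34 genes called by other settings moved by over 1.5 times in the following comparisons. DESeq2 called 5 in ileal Treg between genotypes, 7 in joint-node Treg, 3 in synovial Treg, 3 in ileal Tconv, 2 in mesenteric Tconv, 1 between TNFdARE synovial Treg and Tconv, and 10 between ileal and synovial Treg. With no filter on low counts, 1 was called in joint-node Treg, 1 in synovial Treg, 3 in mesenteric Tconv and 1 in the mesenteric interaction of genotype and cell type. With the experiment as a replicate block, 6 were called between genotypes in joint-node Treg, 4 in ileal Tconv and 1 in joint-node Tconv, and in the other comparisons the count stayed within 1.5 times. With the sheet number as a covariate, 0 were called between genotypes in ileal Treg, 1 in joint-node Treg and 1 in ileal Tconv. There were 7 between Treg and Tconv of the ileum and 3 in the gut interaction. In the joint nodes this covariate marks the WT C Treg library alone, so that fit is much like leaving it out. The covariate could not be fitted for the mesenteric node. With TNFdARE libraries only, 10 were called between ileal and synovial Treg.

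Leaving out 1 library, the counts ran from 14 to 20 for Treg of ileum against node, 24 to 27 for Tconv, 20 to 27 for Treg of synovium against nodes, 23 to 31 for TNFdARE Tconv, and 3 to 12 for ileal against synovial Treg. Between cell types they ran from 10 to 17 (ileum), 16 to 20 (mesenteric node), 19 to 24 (joint nodes) and 0 to 0 (synovium). Between genotypes they ran from 0 to 2 (ileal Treg), 0 to 4 (mesenteric Treg), 0 to 2 (joint-node Treg), 0 to 13 (synovial Treg, 13 without WT B), 0 to 0 (ileal and joint-node Tconv) and 0 to 1 (mesenteric Tconv), and 0 to 0 in both interactions with genotype. The gut interaction was not refitted without single libraries. Where these counts moved, the cause was not tested. Low genes limit precision: Hk2, Vegfa, Aldoc and Pfkfb4 were at most at 12.6 CPM in every node library. The settings with TNFdARE libraries only, the ileal Treg without experiment A and the joint-node Tconv without the 2 libraries with most genes detected were chosen after seeing the data.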
